A study of Mus musculus with 24 samples.

Results

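The 31 genes described here encode enzymes and regulators of cholesterol and fatty acid synthesis. They were chosen as a fixed list of gene symbols, all 31 were found among the 24421 symbols counted in each library, and all 31 passed the filter on low counts. RNA sequencing of total RNA was analysed in bone marrow-derived macrophages, which are cells grown from mouse bone marrow into macrophages in culture. OGT knockout (KO) and wild-type (WT) cells of the C57BL/6J strain, from mice aged 12 weeks, were treated for 12 hours with LPS (100 ng/ml) or with IL-4 (10 ng/ml), or left unstimulated (M0). Each of these 6 groups holds 4 libraries, and each library carries a label number, 5 to 8 in KO and 1 to 4 in WT, which occurs once in each state. OGT is the enzyme that attaches O-GlcNAc to proteins, LPS is a bacterial ligand of Toll-like receptor 4, and IL-4 is a cytokine of type 2 immunity. The labels do not say how Ogt was deleted, in which cells, or whether a label number marks an animal or a culture. The p-values therefore measure only how much these libraries differ among themselves, and part of that may be technical.

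Cells make cholesterol from acetyl-CoA. The mevalonate pathway first builds isoprenoid units, squalene is then formed and closed into a ring, and a chain of enzymes trims that ring to cholesterol. The transcription factor encoded by Srebf2 switches on most of these genes when sterols in the endoplasmic reticulum run low, and INSIG1, itself a target, holds the factor back when sterols are plentiful. Fatty acid synthesis starts from the same acetyl-CoA, through ATP citrate lyase, acetyl-CoA carboxylase and fatty acid synthase, and elongases and desaturases then lengthen the chains and add double bonds. In macrophages, sterol synthesis is known to change with inflammatory stimulation, and oxysterols and LXR receptors control the removal of cholesterol.

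Gene counts per library summed to between 63429271 and 94942464 in 21 libraries. In 3 LPS libraries they summed to only 172771 (KO number 7), 209368 (WT number 1) and 201097 (WT number 2). Levels are given as CPM, counts scaled to library size after TMM normalisation, which compares libraries for 1 gene but not genes with each other. The floor of 3 counts corresponds to 15.5 to 17.9 CPM in each shallow library and to 0.0303 to 0.0550 CPM elsewhere (counting error only). LPS values are therefore given for the deep libraries (KO numbers 5, 6 and 8, WT numbers 3 and 4), with the shallow ones named apart, while the tests used all 24 libraries unless stated. Ogt, counted over the whole gene, read 34.5, 34.6, 36.9 and 35.8 CPM in KO M0 cells, against 47.3, 51.3, 47.4 and 52.4 CPM in WT M0. Its KO and WT values did not overlap in any of the 3 states, and the log2 fold changes were -0.49 ± 0.057, adjusted p = 1.01e-06 in M0, -0.63 ± 0.072, adjusted p = 4.22e-07 in LPS and -0.71 ± 0.057, adjusted p = 2.82e-09 in IL-4, a reduction of less than 2-fold. Adjusted p-values throughout come from edgeR's quasi-likelihood test with Benjamini-Hochberg adjustment over all genes tested, a gene was called at an adjusted p under 0.05, and the error beside a log2 fold change is its standard error.

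The macrophage markers Adgre1, Csf1r, Cd68, Fcgr1, Mertk, Cd14, Itgam and Lyz2 were all detected in every library, with summed levels of 7300.4 to 9034 CPM in KO M0 and 11760.5 to 13368 CPM in WT M0. Lyz2 had the highest level of these markers in every library, so it weighs most in each macrophage sum given here. It read 4695 to 5629 CPM in KO M0 and 8470 to 9855 CPM in WT M0. Cd68 had the opposite direction, at 610 to 701 CPM in KO M0 and 580 to 605 CPM in WT M0. Stromal markers such as Col1a1 were also abundant, summing to 14752 to 19244 CPM in KO M0 and 10318 to 12016 CPM in WT M0. Of 6 adipocyte markers, Lep was at 0 in every library and Plin1 and Cidec at or near 0, while Fabp4, which macrophages also express, was called higher in KO in all 3 states, with 55.8, 60.2, 55.7 and 65.7 CPM in the KO M0 libraries and 34.8 to 41.05 CPM in the WT M0 libraries, and 64.2, 66.4 and 52.8 CPM in deep KO LPS libraries against 17.1 and 16.3 CPM in deep WT LPS libraries. In bulk RNA, fewer cells of a type and less RNA per cell cannot be told apart.

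Promoter windows, from 250 bases before to 50 bases after the annotated start, were matched in RefSeq (GRCm38.p6) for 24 of the 31 genes, and were not matched for Fads1, Fdft1, Fdps, Scd1, Scd2, Sqle and Stard4. Those of Hmgcs1 (HMG-CoA synthase), Insig1 and Idi1 (isopentenyl diphosphate isomerase) are shown because Insig1 and Idi1 had the smallest adjusted p for label number among the genes matched, and Hmgcs1 is the gene whose window held the letters of a sterol regulatory element. Motifs found on either strand are in capitals.
Hmgcs1, chr13:119690101-119690400, plus strand: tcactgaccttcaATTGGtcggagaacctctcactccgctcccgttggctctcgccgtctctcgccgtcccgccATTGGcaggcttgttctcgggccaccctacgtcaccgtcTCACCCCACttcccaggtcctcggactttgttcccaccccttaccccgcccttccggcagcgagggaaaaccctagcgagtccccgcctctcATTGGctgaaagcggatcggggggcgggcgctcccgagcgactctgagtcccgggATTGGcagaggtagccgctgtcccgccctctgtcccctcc
Insig1, chr5:28071162-28071461, plus strand: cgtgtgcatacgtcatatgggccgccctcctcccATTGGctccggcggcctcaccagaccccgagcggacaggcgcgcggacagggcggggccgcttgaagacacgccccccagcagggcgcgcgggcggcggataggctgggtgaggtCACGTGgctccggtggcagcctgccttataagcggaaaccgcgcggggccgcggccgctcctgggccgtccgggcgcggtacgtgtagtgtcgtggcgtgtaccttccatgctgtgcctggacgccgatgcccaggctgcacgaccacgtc
Idi1, chr13:8885356-8885655, plus strand: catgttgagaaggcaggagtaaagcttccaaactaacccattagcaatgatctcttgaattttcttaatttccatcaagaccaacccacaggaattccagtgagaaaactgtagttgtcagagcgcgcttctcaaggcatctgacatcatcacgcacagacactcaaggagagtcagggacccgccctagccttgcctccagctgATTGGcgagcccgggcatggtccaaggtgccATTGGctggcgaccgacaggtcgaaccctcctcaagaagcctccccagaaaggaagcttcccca
In the Hmgcs1 window the capitals mark TCACCCCAC, a match to the sterol regulatory element searched as TCACNCCAC, and 4 copies of CCAAT read on the other strand as ATTGG. The Insig1 window held 1 CCAAT, also read as ATTGG, and 1 CACGTG, the E-box, and the Idi1 window held 2 CCAAT boxes. Among the 24 windows, TCACNCCAC occurred in 1, compared with 1.44% of 27025 promoter windows of the same length. CCAAT, the letters of the NF-Y box, occurred in 20 of the 24 windows, compared with 41.1% of all windows. CACGTG occurred in 5 of the 24 windows, those of Dhcr7, Elovl5, Hsd17b7, Insig1 and Sc5d, compared with 8.09% of all windows. A match describes the letters only, and a window without a match says nothing of the factor.

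The KO libraries did not hold these genes at one level. Within KO, 24 of the 31 genes differed between label numbers 5, 6, 7 and 8 (F-test over 3 number coefficients with state as a term, 6 residual degrees of freedom), compared with 16% of the 14348 genes tested. Within WT, 0 of the 31 genes differed between label numbers 1 to 4, compared with 1.63% of the 14084 genes tested. In the WT fit 6 of the 31 had an unadjusted p under 0.05, and DESeq2 called 1, Hmgcs1. The listed genes were already known to vary among KO libraries when they were chosen, so the KO count describes them and is not independent evidence of it. The genes called within KO were 7 of 7 in the mevalonate pathway, 10 of 11 from squalene to cholesterol, 3 of 3 in sterol control and transport, 1 of 3 in fatty acid synthesis, 3 of 4 desaturases and 0 of 3 in elongation and activation.

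**Figure D1:**
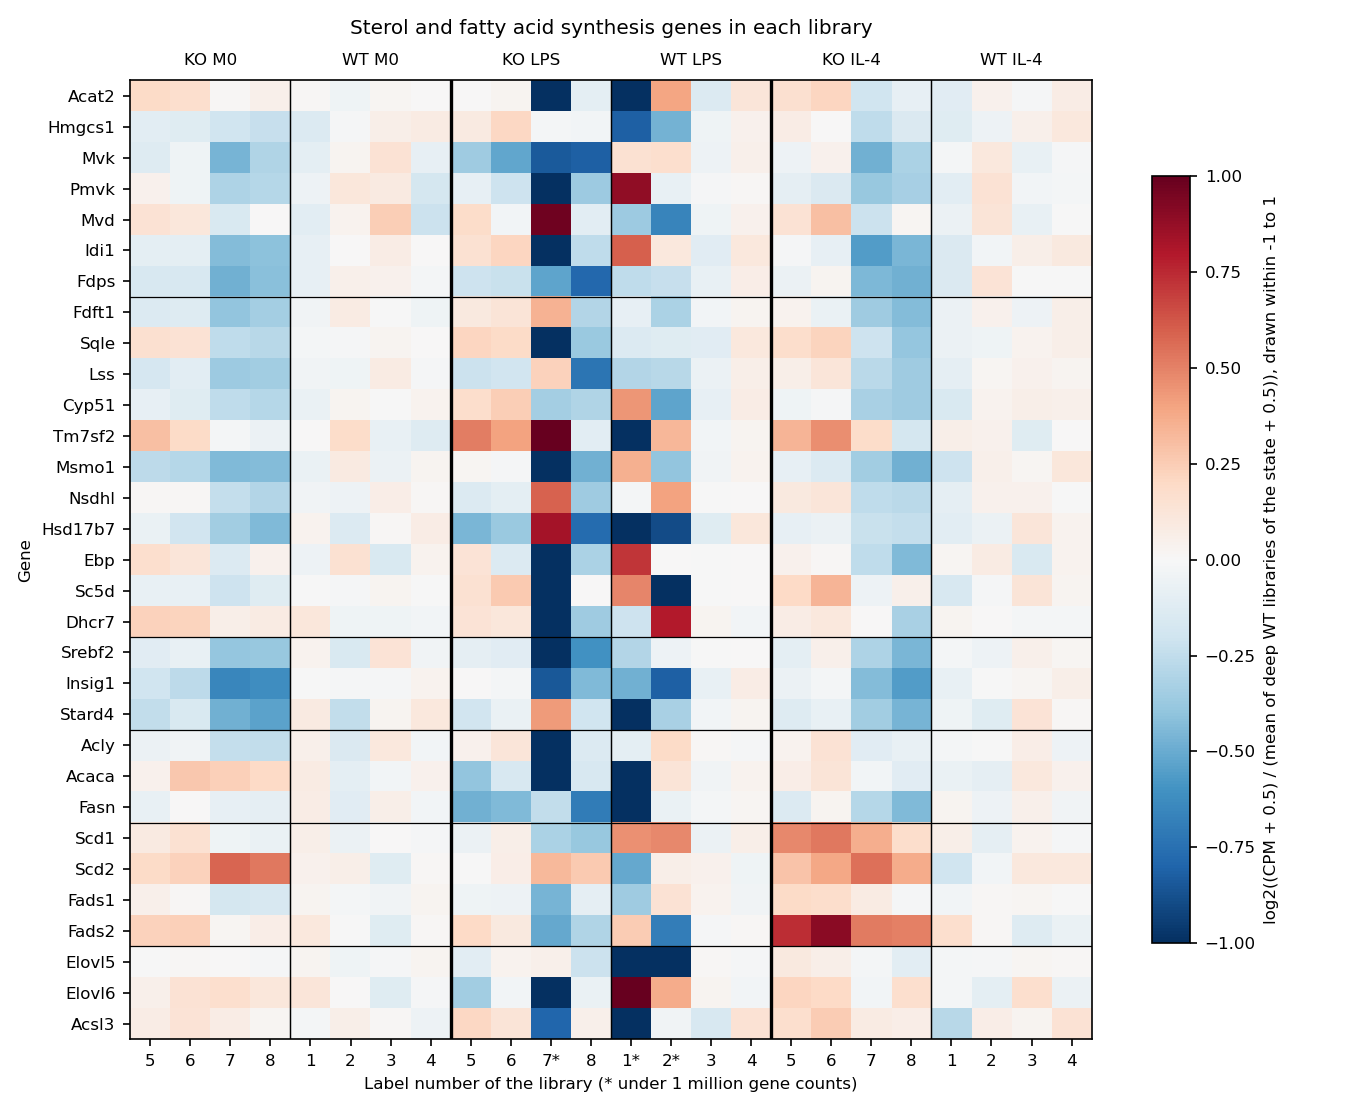
Each cell shows the log2 ratio of a gene's CPM in 1 library to the mean of the deep WT libraries of the same state, with genes in rows by role and the 24 libraries in columns by group and label number. KO numbers 7 and 8 are blue for most sterol genes in M0 and IL-4, where KO numbers 5 and 6 lie near 0, and columns with a star are the 3 shallow LPS libraries.

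Insig1, the sterol-sensing brake on SREBP processing, had the smallest adjusted p for label number within KO (1.18e-05). Its levels were 83.9, 80.4, 61.2 and 62.7 CPM in KO M0 numbers 5 to 8, against 96.1, 95.9, 95.6 and 98.9 CPM in WT M0 numbers 1 to 4. In IL-4 they were 90.8, 93.3, 69.7 and 64.1 CPM in KO and 89.5, 94.1, 95.9 and 98.3 CPM in WT. KO numbers 7 and 8 were therefore the low libraries in both states, below every WT library, while KO numbers 5 and 6 lay inside the WT range in IL-4 with 90.8 and 93.3 CPM and below it in M0. In LPS the deep libraries read 65.2, 64.1 and 47.6 CPM in KO numbers 5, 6 and 8, against 61.6 and 68.2 CPM in WT numbers 3 and 4, and number 8 was again the low one.

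Sqle, squalene epoxidase and a rate-limiting step of the later pathway, followed the same order (adjusted p 1.24e-05). Its KO levels in M0 were 89.6, 88.8, 67.3 and 66.04 CPM, against 79.2, 79.6, 81.9 and 80.3 CPM in WT. Its KO levels in IL-4 were 111, 115, 84.9 and 75.1 CPM, against 94.4, 95.1, 100.3 and 102 CPM in WT. In both states the WT libraries lay between the higher pair of KO libraries, numbers 5 and 6, and the lower pair, numbers 7 and 8. In LPS, KO numbers 5, 6 and 8 read 59.4, 58.5 and 39.3 CPM, and WT numbers 3 and 4 read 47.3 and 54.9 CPM.

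In the mevalonate pathway, Idi1 (adjusted p 8.92e-05), which isomerises the first isoprenoid unit, read 56.97, 57.03, 45.1 and 45.8 CPM in KO M0 cells, against 57.7, 61.3, 64.3 and 61.3 CPM in WT M0, with no overlap. In IL-4 it read 84.6, 80.5, 57.7 and 61.8 CPM in KO and 76.9, 83.5, 88.9 and 91.3 CPM in WT, so only numbers 7 and 8 fell outside the WT range. Fdps, farnesyl diphosphate synthase (adjusted p 9.19e-05), read 85.2, 85.2, 68.2 and 71.4 CPM in KO M0 cells, against 90.3, 99.05, 98.1 and 94.2 CPM in WT M0. The same gene read 123, 131, 94.3 and 92.2 CPM in KO IL-4 cells, against 117, 142, 129 and 129 CPM in WT IL-4. For Mvk, mevalonate kinase (adjusted p 0.00047), the KO values were 29.05, 31.02, 22.98 and 25.8 CPM in M0 and 34.5, 36.8, 25.6 and 28.6 CPM in IL-4, against WT ranges of 29.8 to 35.3 and 33.9 to 38.4 CPM. Each of these 3 genes had its 2 lowest KO values in numbers 7 and 8 in M0 and in IL-4. Hmgcs1, which makes HMG-CoA, varied less: 108, 107, 101 and 99.3 CPM in KO M0 against 106, 115, 121 and 123 CPM in WT M0, and 131, 125, 104 and 113 CPM in KO IL-4 against 114, 120.2, 129 and 134 CPM in WT IL-4 (label number adjusted p 0.041). Acat2, Pmvk and Mvd, the acetyl-CoA acetyltransferase, phosphomevalonate kinase and mevalonate diphosphate decarboxylase genes, were called with adjusted p of 0.0222, 0.00552 and 0.0225.

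Between squalene and cholesterol, Fdft1 (squalene synthase, adjusted p 0.000756) read 35.9, 36.1, 30.02 and 31.1 CPM in KO M0 cells, against 38.6, 41.9, 39.3 and 38.3 CPM in WT M0. Lss (lanosterol synthase, adjusted p 0.00103) read 35.6, 37.1, 28.2 and 26.6 CPM in KO IL-4 cells, against 32.1, 34.7, 35.1 and 34.8 CPM in WT IL-4. Cyp51 (lanosterol demethylase, adjusted p 0.0017) read 98.9, 101, 81.3 and 79.3 CPM in KO IL-4 cells, against 91.8, 104, 106 and 105 CPM in WT IL-4. In each of the 3 genes, KO numbers 7 and 8 were below all 4 WT libraries in that state, and KO numbers 5 and 6 were higher than 7 and 8. The gene for squalene synthase overlaps Ctsb by 774 bases, and Lss overlaps the long noncoding gene 4930483K19Rik, so reads in the shared bases may not be separable. Tm7sf2, Msmo1, Nsdhl, Ebp, Sc5d and Dhcr7, which reduce, demethylate, isomerise or desaturate the sterol ring, were called with adjusted p between 0.00271 (Nsdhl) and 0.0488 (Sc5d). Hsd17b7, a sterol ketoreductase, was the exception, with an adjusted p of 0.0518.

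Srebf2, the gene of the sterol-regulated transcription factor itself, read 177, 181, 147 and 147 CPM in KO M0 cells, against 197, 172, 210.3 and 186 CPM in WT M0. In IL-4 it read 191, 212, 165 and 149 CPM in KO cells, against 202, 197, 212 and 207 CPM in WT (label number adjusted p 0.0017). KO numbers 7 and 8 lay below all WT libraries in both states, and KO numbers 5 and 6 overlapped the WT libraries in M0. Stard4, a carrier of cholesterol between membranes, was also called (0.0149), with 22.8, 24.2, 19.2 and 18.5 CPM in KO M0 cells, against 28.8, 22.7, 27.5 and 29.1 CPM in WT M0.

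Of the 10 fatty acid genes, 4 passed the test of label number within KO: Fasn, Scd1, Scd2 and Fads2. Fasn, fatty acid synthase (adjusted p 0.0287), read 110.2, 116, 109 and 109 CPM in KO M0 and 122, 107, 121 and 114 CPM in WT M0, and 179, 201, 161 and 145 CPM in KO IL-4 and 200.2, 190.2, 204 and 192 CPM in WT IL-4. The KO libraries were thus close together in M0 and spread in IL-4. Acaca, acetyl-CoA carboxylase (0.436), Acly, ATP citrate lyase (0.0601), Fads1, the delta-5 desaturase (0.088), and Elovl5, Elovl6 and Acsl3, which elongate or activate fatty acids (0.272, 0.713 and 0.395), did not pass the test, although Acly was called with DESeq2's size factors and Fads1 by DESeq2. Scd1, a delta-9 desaturase, and Fads2, the delta-6 desaturase, did pass, with adjusted p of 0.00264 and 0.00507. Scd2, the other delta-9 desaturase, was called (0.009) with the opposite order in M0: 212, 217, 278 and 268 CPM in KO cells, against 190.3, 193, 170.5 and 187 CPM in WT. For Scd2 numbers 7 and 8 were the high KO libraries, and all 4 KO libraries exceeded all 4 WT libraries.

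**Figure D2:**
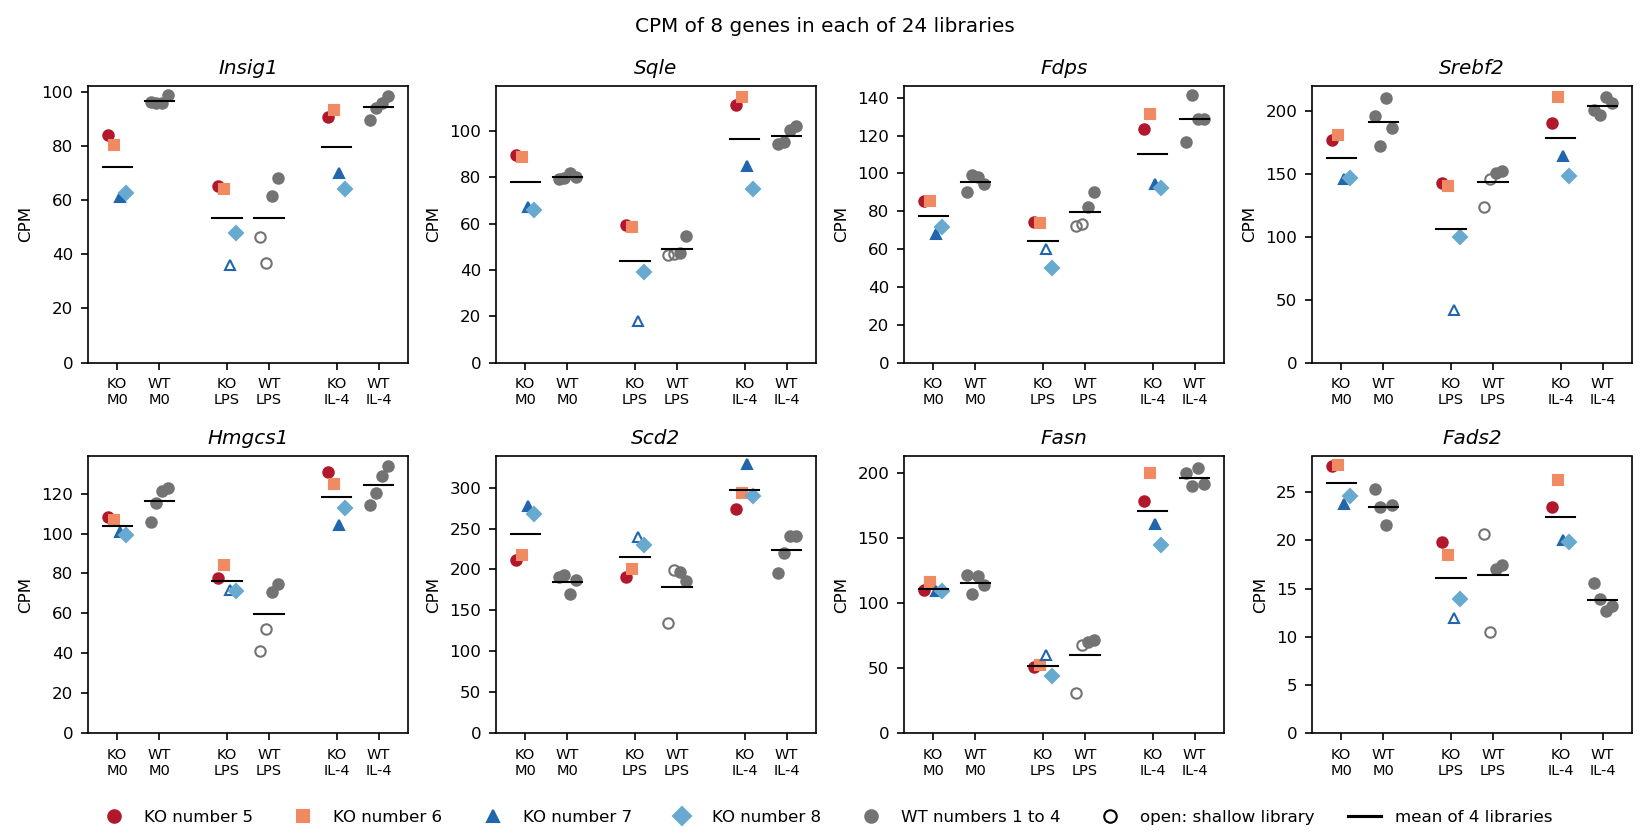
CPM of 8 genes in each of the 24 libraries, by group, with 1 symbol for each KO label number, gray circles for WT, open symbols for the 3 shallow libraries and a line at the mean of 4 libraries. KO numbers 7 and 8 sit low for Insig1, Sqle, Fdps and Srebf2 in M0 and IL-4, while Scd2 has its highest KO M0 values in those libraries, 278 and 268 CPM.

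Counted by rank, KO numbers 7 and 8 held the 2 lowest of the 4 KO values for 26 of the 31 genes in M0, compared with 28.9% of all 14693 genes tested. In IL-4 they did so for 30 of 31 genes, all but Scd2, compared with 28.6% of all genes. In LPS, where number 7 is shallow, they did so for 19 of 31 genes, compared with 35.1% of all genes. The opposite order, numbers 7 and 8 highest, held for 1 of 31 genes in M0 (30.7% of all genes), 0 of 31 in IL-4 (24.6%) and 1 of 31 in LPS (13.3%), the gene being Scd2 in both cases. These counts were made with the order of the libraries known and are given with no test.

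**Figure D3:**
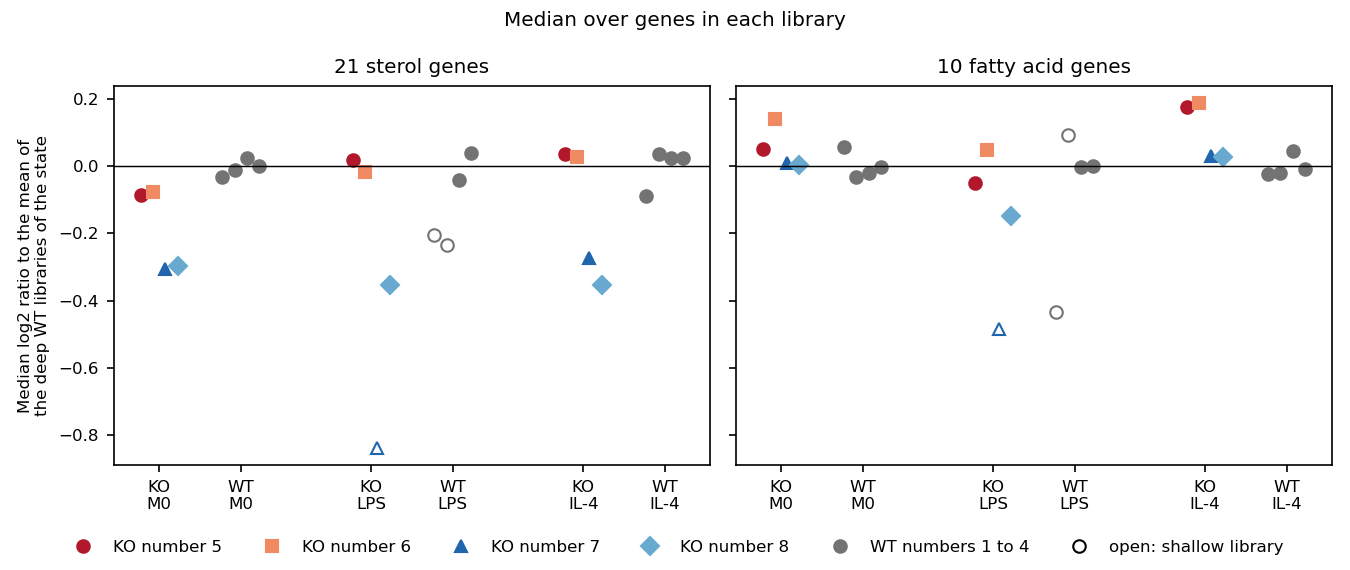
Median over 21 sterol genes (left) and 10 fatty acid genes (right) of the log2 ratio to the mean of the deep WT libraries of the state, for each library; symbols as in the plot of CPM by library. The sterol medians of KO numbers 7 and 8 lie at -0.31 and -0.30 in M0 and -0.27 and -0.35 in IL-4, and those of KO numbers 5 and 6 between -0.085 and 0.037 in the same states.

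The median over the 21 sterol genes of the log2 ratio to the WT mean was -0.085, -0.077, -0.31 and -0.30 in KO M0 numbers 5 to 8, with WT M0 libraries at -0.032 to 0.024. In IL-4 it was 0.037, 0.027, -0.27 and -0.35 in KO, with WT at -0.09 to 0.035. In LPS, against the deep WT libraries, it was 0.018, -0.018 and -0.35 in KO numbers 5, 6 and 8, and -0.84 in the shallow number 7, in which the median of all genes was itself -0.37. The fatty acid genes showed less of this order: their median was 0.052, 0.14, 0.011 and 0.0032 in KO M0 and 0.18, 0.19, 0.032 and 0.028 in KO IL-4, so no KO library of these states lay below 0. The median coefficient of variation over the 31 genes was 9.10% among the 4 KO M0 libraries and 5.36% among the 4 WT M0 libraries, where the medians over all genes were 7.62% in KO and 7.64% in WT. In IL-4 it was 12.98% in KO and 6.37% in WT, with medians over all genes of 8.39% in KO and 6.71% in WT. The genes were known to vary among KO libraries when they were chosen. The KO medians and coefficients of variation therefore describe them and are not independent evidence of that spread.

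Markers of other cell types moved with the KO label number too, in a test that called 16% of all 14348 genes. The 8 endothelial markers summed to 70.96, 75.5, 116 and 119.9 CPM in KO M0 cells, against 68.4 to 73.8 CPM in WT M0, and to 66.2, 67.2, 83.95 and 79.01 CPM in KO IL-4 cells, against 74.3 to 82.9 CPM in WT IL-4. Of them 7 of 8 differed by label number within KO, among them Cdh5, the VE-cadherin gene, at 3.46, 4.99, 22.3 and 21.9 CPM in KO M0 and 3.73 to 4.76 CPM in WT M0. Eng, the endoglin gene and also among the 7, had the opposite order, at 45.3, 46.9, 39.02 and 38.8 CPM in KO M0 and 47.9 to 53.3 CPM in WT M0. In the deep LPS libraries the endothelial sum was 278, 267 and 224 CPM in KO numbers 5, 6 and 8, lowest in number 8. That order came from Eng (191, 180 and 111 CPM) and Kdr (59.4, 62.4 and 51.2 CPM). Cdh5 (7.07, 7.01 and 19.2 CPM), Pecam1 (11.4, 10.7 and 18.4 CPM), Egfl7, Emcn, Tie1 and Tek were instead highest in number 8. Stromal markers (3 of 8 called by label number) summed to 14752, 16209, 19244 and 18479 CPM in KO M0 and 10931, 10797, 14098 and 12432 CPM in KO IL-4. Col1a1, Col1a2 and Col3a1 made up most of these sums. Cxcl12 had the opposite order, at 930, 1077, 626 and 647 CPM in KO M0 and 432, 388, 337 and 346 CPM in KO IL-4. So did Pdgfra, at 44.4, 41.7, 37.6 and 35.7 CPM in KO M0. Macrophage markers (3 of 8 called: Csf1r, Adgre1 and Fcgr1) summed to 9034, 8366, 7300.4 and 7522 CPM in KO M0 and 5111, 5209.9, 4947 and 5002 CPM in KO IL-4, and the macrophage growth factor receptor gene Csf1r read 1487, 1379, 1017 and 1003 CPM in KO M0. Proliferation markers (2 of 6 called) summed to 594, 608, 531 and 531 CPM in KO M0 and 1001, 983, 813 and 859 CPM in KO IL-4 cells, against 592 to 622 CPM in WT M0 and 1038 to 1082 CPM in WT IL-4. Neutrophil markers were called by label number in 3 of 6 cases, and the low-level genes Adipoq, Cd4 and Mcpt8 were called as well, while within WT, where 1.63% of all genes were called, no marker of any list was. Their part in the result was not tested.

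In unstimulated cells, KO against WT, few of the 31 genes passed the test. Scd2 rose, Insig1, Msmo1 and Stard4 fell, and the other 27 did not pass, so 4 of 31 genes were called, compared with 22.3% of 14693 genes (11.8% higher and 10.5% lower). Scd2 averaged 244 ± 33.98 CPM in KO M0 and 185 ± 10.1 CPM in WT M0 (SD, n = 4 each; log2 fold change 0.40 ± 0.089, adjusted p = 0.00212). Insig1 averaged 72.1 ± 11.8 CPM in KO M0 and 96.6 ± 1.51 CPM in WT M0 (SD, n = 4 each; log2 fold change -0.42 ± 0.11, adjusted p = 0.00879), and its groups did not overlap. Msmo1, the methylsterol monooxygenase gene, had 68.1, 66.8, 59.8 and 60.2 CPM in KO M0 cells, against 77.9, 87.02, 78.4 and 83.2 CPM in WT M0, with no overlap (log2 fold change -0.36 ± 0.099, adjusted p = 0.0108). Stard4 had KO numbers 5 and 6 above WT number 2, so its groups overlapped (log2 fold change -0.35 ± 0.10, adjusted p = 0.0132). The 4 KO values lay below the 4 WT values in 8 genes (Idi1, Fdps, Fdft1, Lss, Cyp51, Msmo1, Sc5d and Insig1), compared with 13.6% of all genes, and above them in 1 gene, Scd2, compared with 13.5%.

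By role, the median log2 fold change in M0 was -0.16 for the mevalonate genes, -0.12 for those from squalene to cholesterol, -0.35 for sterol control and transport, -0.060 for fatty acid synthesis, 0.092 for the desaturases and 0.077 for elongation and activation, with 0.015 over all genes tested. Of genes not called, Hmgcs1 had a log2 fold change of -0.16 ± 0.074, Sqle -0.041 ± 0.13, Srebf2 -0.23 ± 0.12, Fasn -0.06 ± 0.081, Acaca 0.19 ± 0.082 and Scd1 0.037 ± 0.08, with adjusted p from 0.0918 to 0.854. The count depended on which KO libraries were used, in pairs chosen with their order known. Without KO numbers 5 and 6, 18 of 31 were called (17 lower, and Scd2 higher; 31.3% of all genes), and without numbers 7 and 8, 4 were called (Dhcr7 and Fads2 higher, Insig1 and Msmo1 lower; 19.7% of all genes). Without numbers 7 and 8 the Scd2 fold change was 0.20 (adjusted p 0.0507) and that of Stard4 -0.21 (0.107). DESeq2 called Scd2 and Insig1 but not Msmo1 (0.0675) or Stard4 (0.211), where it called 7.51% of all genes in its fit. A fit of the 8 M0 libraries alone called 11 (10 lower; 24.1% of all genes), and leaving out KO M0 number 5 or number 6 gave 8 (22.5% and 21% of all genes). In M0, stromal markers were called higher in KO for 6 of 8 genes and endothelial markers for 5 of 8, macrophage markers were called lower for 4 of 8, and their part in the result was not tested.

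**Figure D4:**
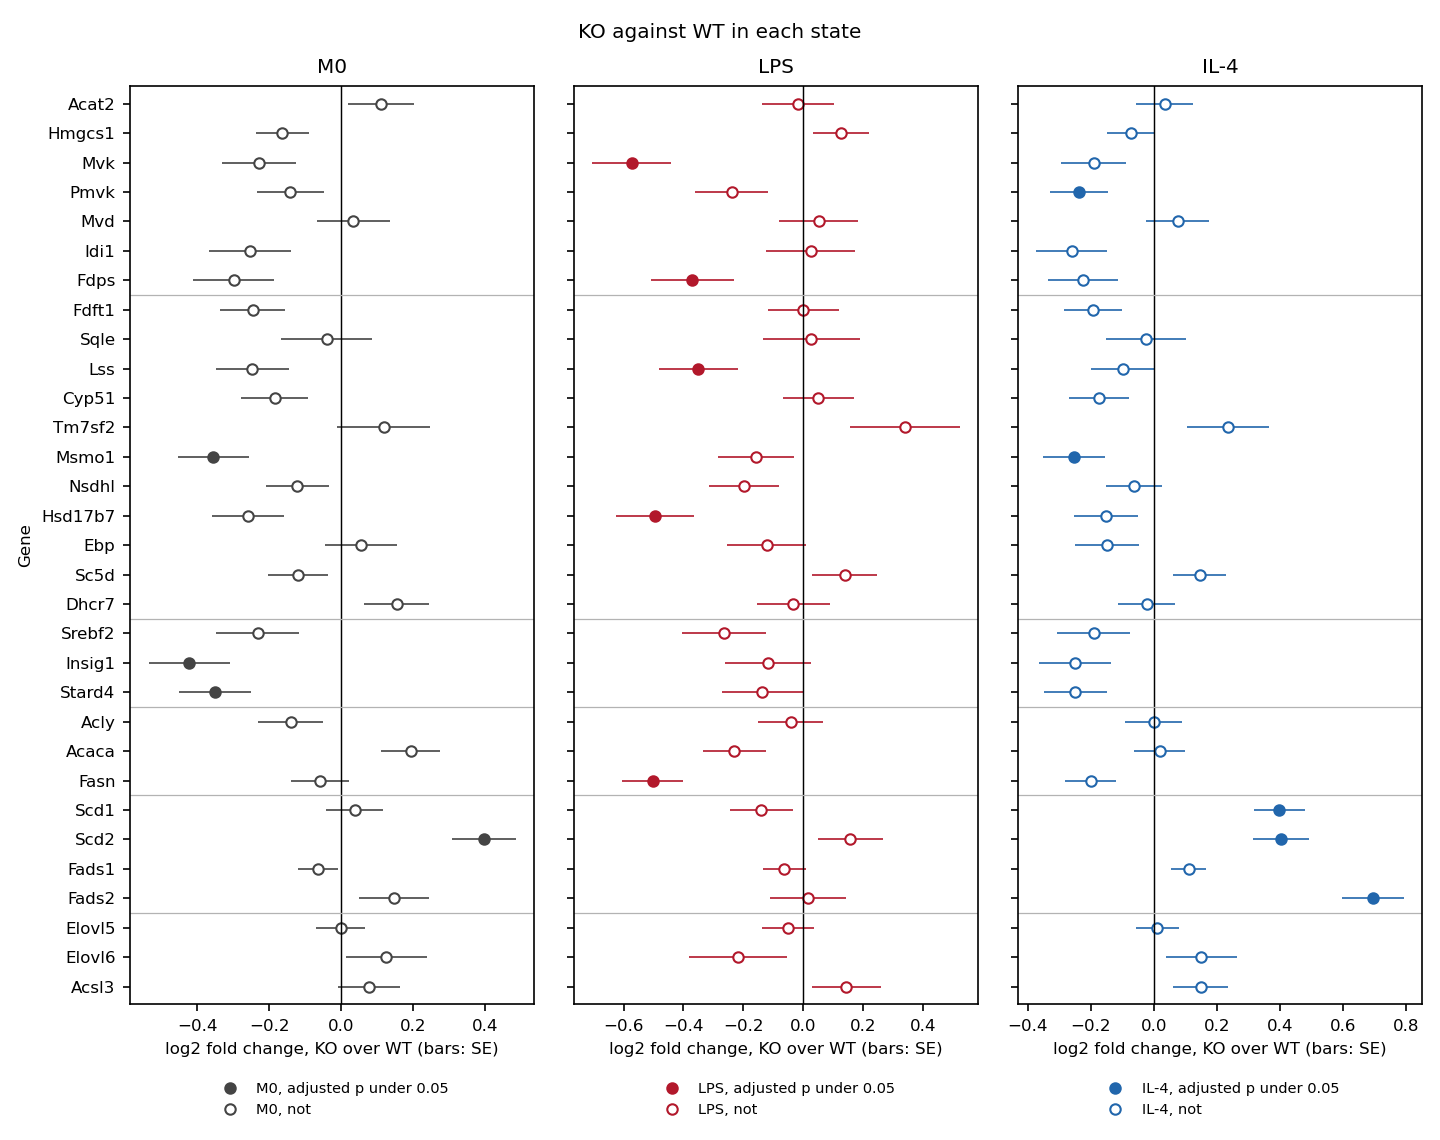
Log2 fold change of KO over WT with its standard error for each of the 31 genes in M0, LPS and IL-4, with filled symbols at an adjusted p under 0.05 and lines between roles. The desaturases Scd1, Scd2 and Fads2 stand right of 0 in IL-4, at 0.40, 0.40 and 0.69, and Fasn and Mvk left of 0 in LPS, at -0.50 and -0.57.

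After LPS, 5 of the 31 genes were lower in KO than in WT and 0 were higher, compared with 30.9% of all genes called (14.6% lower, 16.2% higher). The 5 were Fasn, Mvk, Hsd17b7, Lss and Fdps. Fasn read 50.9, 52.3 and 43.6 CPM in the deep KO libraries, against 70.2 and 71.99 CPM in the deep WT libraries (log2 fold change -0.50 ± 0.10, adjusted p = 0.000525). Shallow KO number 7 held 59.8 CPM from 10 counts, and shallow WT numbers 1 and 2 held 30.9 CPM from 6 counts and 68.001 CPM from 13 counts, so the groups overlapped only through shallow libraries. Mvk read 25.2, 22.5 and 18.3 CPM in the deep KO libraries, against 31.3 and 33.6 CPM in the deep WT libraries (log2 fold change -0.57 ± 0.13, adjusted p = 0.00166). With Mvk at 17.9 CPM from 3 counts in KO number 7, and at 36.1 CPM from 7 counts and 36.6 CPM from 7 counts in WT numbers 1 and 2, all KO values lay below all WT values. With shallow libraries included, Mvk and Pmvk were the only 2 of the 31 genes with KO wholly below WT in LPS, compared with 4.83% of all genes, and 0 of 31 were wholly above, compared with 8.04%. For Pmvk this rests on 15.6 CPM in KO number 5 against 15.7 CPM from 3 counts in shallow WT number 2. In the deep libraries alone, Fdps, Lss, Nsdhl, Hsd17b7, Srebf2, Stard4, Acaca, Fasn and Fads1 also had KO wholly below WT, and Sc5d had it wholly above. Some of these gaps were very small. Fads1 read 64.3, 63.8 and 61.996 CPM in KO and 67.6 and 64.6 CPM in WT. Sc5d read 28.5, 30.9 and 25.8 CPM in KO and 25.5 and 25.7 CPM in WT. Full separation of so few libraries is a weak criterion. No share of all genes is given for the deep libraries alone, so the list is not a result about these genes. Hsd17b7 read 14.4, 15.3 and 11.5 CPM in the deep KO libraries, against 18.3 and 21.5 CPM in the deep WT libraries (log2 fold change -0.50 ± 0.13, adjusted p = 0.00517). Its shallow KO library stood apart at 35.9 CPM from 6 counts. Lss (-0.35 ± 0.13, adjusted p = 0.0452) and Fdps (-0.37 ± 0.14, adjusted p = 0.0464) were near the threshold.

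Fasn, Mvk and Hsd17b7 were also called without the 3 shallow libraries, whereas Lss (0.0618) and Fdps (0.0738) were not. Hsd17b7 was not called without WT LPS number 4 (0.140) or by DESeq2 (0.400), which called Fasn and Mvk only (13.9% of all genes in its fit). Leaving out any 1 of the 4 WT LPS libraries, or KO LPS number 8, ended the calls of Lss and Fdps, and leaving out KO LPS number 7 ended that of Fdps (0.0585). Without KO numbers 5 and 6, 17 genes were called (16 lower; 29.2% of all genes), and without numbers 7 and 8, 10 (6 lower, and Cyp51, Sc5d, Sqle and Tm7sf2 higher; 37.7% of all genes). The median log2 fold change of the 31 genes was -0.062, with 0.012 over all genes. Genes not called were Hmgcs1 (0.13 ± 0.094), Sqle (0.027 ± 0.16), Insig1 (-0.12 ± 0.14), Srebf2 (-0.26 ± 0.14), Acaca (-0.23 ± 0.11), Scd1 (-0.14 ± 0.10) and Scd2 (0.16 ± 0.11). In the deep LPS libraries stromal markers summed to 18708 to 18811 CPM in KO and 13915 to 14204 CPM in WT (6 of 8 called higher), macrophage markers to 9807 to 10652 CPM in KO and 15927 to 15959.9 CPM in WT (5 of 8 called lower, 2 higher), and endothelial markers to 224 to 278 CPM in KO and 244 to 251 CPM in WT. Their part in the result was not tested.

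After IL-4, 3 of the 4 desaturase genes were higher in KO than in WT. Fads2, Scd1 and Scd2 rose, Pmvk and Msmo1 fell, and 26 genes did not pass, so 5 of 31 were called (3 higher, 2 lower), compared with 36.1% of all genes (17.9% higher and 18.2% lower). Fads2, which starts the synthesis of long polyunsaturated fatty acids, read 23.5, 26.3, 20.02 and 19.8 CPM in KO IL-4 cells, against 15.6, 13.9, 12.6 and 13.2 CPM in WT IL-4 (log2 fold change 0.69 ± 0.098, adjusted p = 7.57e-06). Scd1, which makes monounsaturated fatty acids, read 43.02, 44.5, 39.7 and 34.8 CPM in KO IL-4 cells, against 31.99, 28.9, 31.5 and 30.5 CPM in WT IL-4 (log2 fold change 0.40 ± 0.08, adjusted p = 0.000417). Its paralog Scd2 read 274, 294, 328 and 290.4 CPM in KO IL-4 cells, against 196, 220.2, 241 and 241 CPM in WT IL-4 (log2 fold change 0.40 ± 0.089, adjusted p = 0.00099). In these 3 of 31 genes every KO library was above every WT library, compared with 17.3% of all genes, 0 of 31 had KO wholly below WT, compared with 19.8%, and the fourth desaturase, Fads1, overlapped (log2 fold change 0.11 ± 0.055, adjusted p = 0.123). Scd1 (chr19:44394450-44407709, GRCm38.p6) lies on the same chromosome as Scd2 (chr19:44293676-44306864), Fads1 (chr19:10182877-10196874) and Fads2 (chr19:10062765-10101503). Scd1 and Scd2 are similar in sequence, so how their reads were divided is uncertain.

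The calls of Fads2, Scd1 and Scd2 held in every alternative run for this comparison, each single library left out included. The calls of Pmvk (-0.24 ± 0.092, adjusted p = 0.0453) and Msmo1 (-0.25 ± 0.099, adjusted p = 0.047) did not: with DESeq2's size factors, with no filter and with DESeq2 itself, 3 genes were called, 3 higher and 0 lower. In that order the fits called 36.4%, 26.4% and 14.6% of all their genes. Leaving out KO IL-4 number 7 or 8, or WT IL-4 number 2 or 4, ended both calls, and leaving out WT IL-4 number 3 ended that of Msmo1. Without KO numbers 5 and 6, 20 genes were called (the same 3 higher, 17 lower; 41.3% of all genes). Without KO numbers 7 and 8, 7 were called and all were higher (Fads1, Fads2, Sc5d, Scd1, Scd2, Sqle and Tm7sf2; 32.3% of all genes). Leaving out KO IL-4 number 5 gave 10 called genes (35% of all genes), leaving out number 6 gave 11 (34.7%), and leaving out KO number 7 (29.9%) or WT number 4 (31.2%) gave 3. Among genes not called, the log2 fold change was -0.25 ± 0.11 for Insig1, -0.19 ± 0.12 for Srebf2, -0.20 ± 0.081 for Fasn, -0.073 ± 0.074 for Hmgcs1, -0.024 ± 0.13 for Sqle and 0.018 ± 0.081 for Acaca, with adjusted p from 0.0547 to 0.904. The median over the 31 was -0.063, with 0.0065 over all genes. Stromal markers summed to 10797 to 14098 CPM in KO IL-4 and 7339.6 to 7894 CPM in WT IL-4 (7 of 8 called higher), macrophage markers to 4947 to 5209.9 CPM in KO IL-4 and 5547 to 6175 CPM in WT IL-4 (1 of 8 higher, 1 lower), and proliferation markers were called lower in 5 of 6 cases. Of the endothelial markers, whose sums are given above, 3 of 8 were called higher and 1 lower. The adipocyte list was carried by Fabp4, at 149, 147, 127 and 168 CPM in KO IL-4 and 68.9, 83.2, 86.7 and 82.2 CPM in WT IL-4, while Plin1 and Cidec did not exceed 0.0638 CPM in IL-4. Their part in the result was not tested.

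LPS lowered most of the 31 genes in both genotypes. Against M0, 26 of 31 fell in KO (36% of all genes) and 23 of 31 fell in WT (28.3% of all genes), and 0 rose in either, where 31.2% of all genes rose in KO and 29.4% in WT. In KO these were 5 of 7 mevalonate genes, 9 of 11 from squalene to cholesterol, 3 of 3 in control and transport, 2 of 3 in fatty acid synthesis, 4 of 4 desaturases and 3 of 3 in elongation and activation, and in WT 4, 9, 3, 1, 3 and 3. Dhcr7, which makes cholesterol from 7-dehydrocholesterol, read 19.8, 19.5 and 13.9 CPM in deep KO LPS libraries, against 47.05, 46.8, 41.7 and 42.4 CPM in KO M0 (log2 fold change -1.34 ± 0.10, adjusted p = 9.78e-12). In WT it read 18.2 and 17.6 CPM in deep LPS libraries, against 43.2, 38.9, 38.8 and 39.2 CPM in M0 (log2 fold change -1.15 ± 0.12, adjusted p = 3.91e-09). Fads1 fell by 0.90 on the log2 scale in KO (7.2e-13) and by 0.90 in WT (1.18e-11), with 64.3, 63.8 and 61.996 CPM in deep KO LPS libraries and 67.6 and 64.6 CPM in deep WT LPS libraries. Over all 8 libraries of a genotype, LPS values lay wholly below M0 values for 17 of 31 genes in KO (28.5% of all genes) and 19 of 31 in WT (23.5%).

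Fasn read 50.9, 52.3 and 43.6 CPM in deep KO LPS libraries, against 110.2, 116, 109 and 109 CPM in KO M0 (log2 fold change -1.18 ± 0.09, adjusted p = 9.68e-12), and in WT it fell by 0.74 on the log2 scale (4.52e-07). Elovl6, the elongase of palmitate, read 2.97, 3.85 and 3.72 CPM in deep KO LPS libraries, against 8.27, 8.84, 9.005 and 8.64 CPM in KO M0 (log2 fold change -1.31 ± 0.13, adjusted p = 2.39e-09). In WT, Stard4 read 12.97 and 13.5 CPM in deep LPS libraries, against 28.8, 22.7, 27.5 and 29.1 CPM in M0 (log2 fold change -1.05 ± 0.13, adjusted p = 1.23e-07). Hmgcs1 read 70.9 and 74.9 CPM in deep WT LPS libraries, against 106, 115, 121 and 123 CPM in WT M0 (log2 fold change -0.71 ± 0.09, adjusted p = 1.81e-07), and its change in KO was -0.42 ± 0.08 (5.26e-05). Sqle fell in KO (-0.59 ± 0.14) and WT (-0.66 ± 0.16), as did Insig1 (-0.30 ± 0.12 in KO, -0.61 ± 0.14 in WT), Srebf2 (-0.39 ± 0.12 in KO, -0.36 ± 0.14 in WT) and Scd1 (-0.57 ± 0.088 in KO, -0.39 ± 0.099 in WT). Acaca and Scd2 fell in KO (-0.39 ± 0.089 and -0.22 ± 0.095) and were not called in WT (0.036 ± 0.099 and 0.016 ± 0.10), and Acly was called in neither. Without the 3 shallow libraries 22 genes fell in each genotype, with Cyp51, Insig1, Mvk and Scd2 no longer called in KO and Fdft1 no longer called in WT. The share of all genes that fell in that fit is not given. With all libraries it was 36% in KO and 28.3% in WT. Marker sums moved with LPS too, in the deep libraries. Proliferation markers summed to 410.0 to 426 CPM in KO LPS compared with 531 to 608 CPM in KO M0 (5 of 6 called lower, 1 higher), and to 384 to 385 CPM in WT LPS against 592 to 622 CPM in WT M0 (5 of 6 lower). Endothelial markers summed to 224 to 278 CPM in KO LPS and 244 to 251 CPM in WT LPS, compared with 70.96 to 119.9 CPM in KO M0 and 68.4 to 73.8 CPM in WT M0. In KO 2 of 8 were called higher and 1 lower, and in WT 3 were called higher. Eng and Kdr made up most of the LPS sums, with Eng at 191, 180 and 111 CPM in deep KO libraries and 194 and 203 CPM in deep WT libraries. Macrophage markers were called higher in 4 of 8 cases in each genotype and lower in 2 in KO and 3 in WT, and stromal markers higher in 4 of 8 in each. Their part in the result was not tested.

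**Figure D5:**
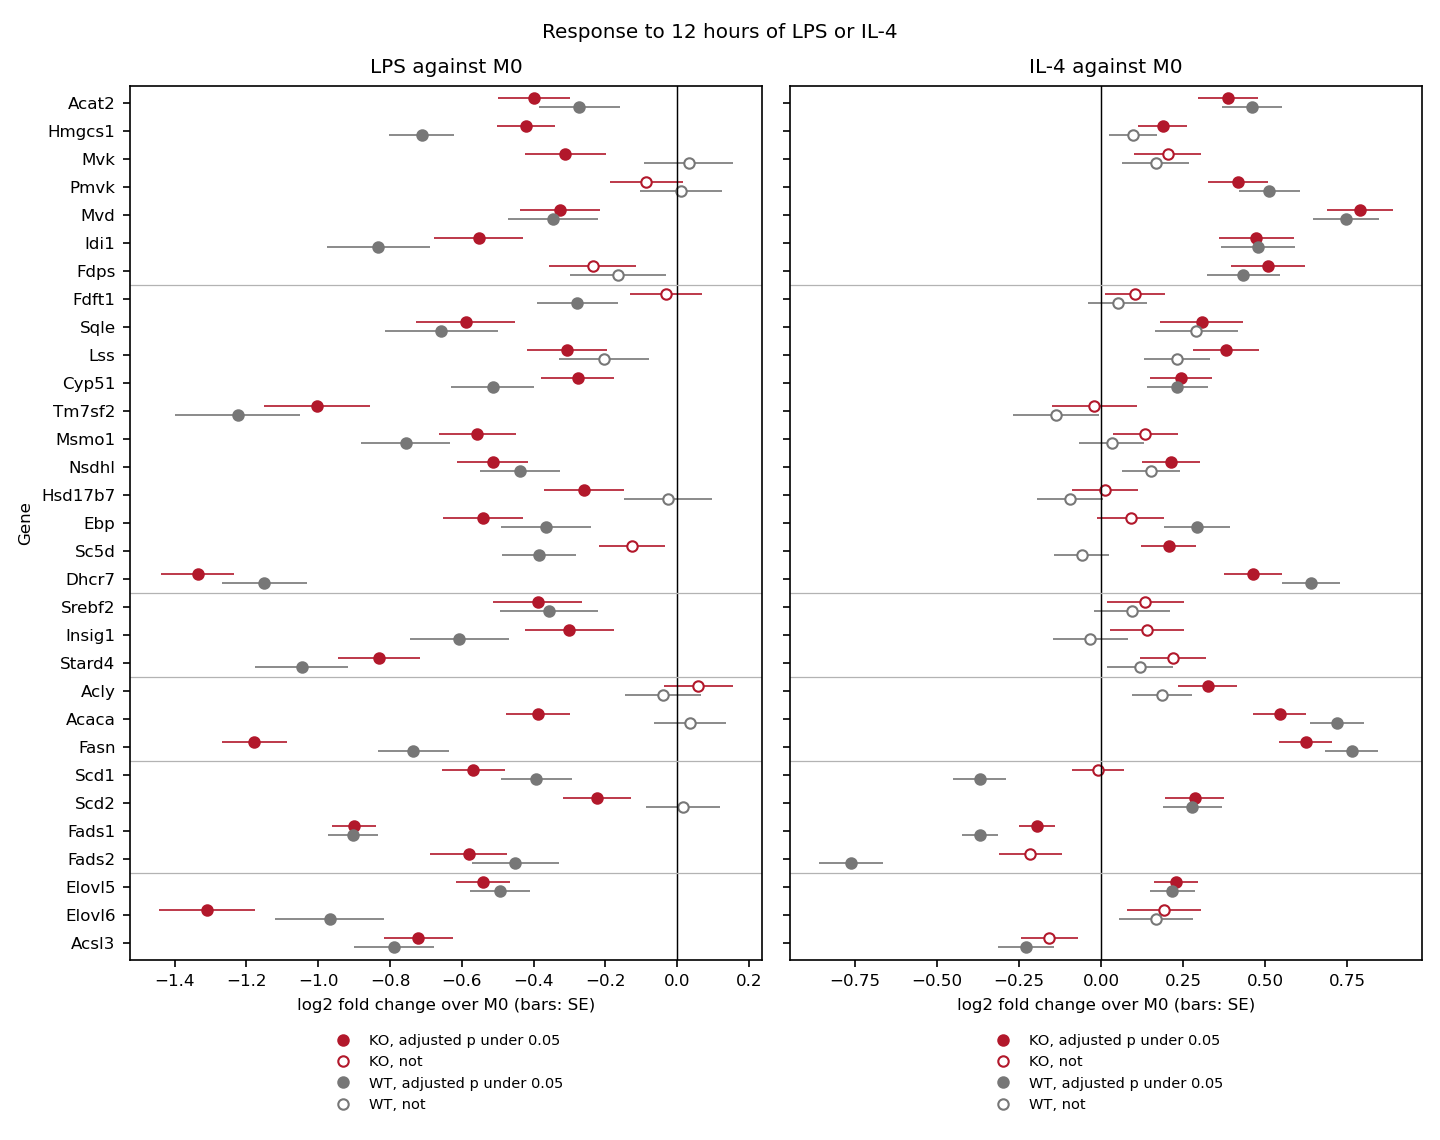
Log2 fold change over M0 with its standard error for LPS (left) and IL-4 (right), KO in red and WT in gray, with filled symbols at an adjusted p under 0.05. All called LPS changes are below 0, and in the IL-4 panel Fads2 lies at -0.22 in KO and -0.76 in WT.

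IL-4 raised part of the list. Against M0, 17 of 31 genes rose and 1 fell in KO, where 26% of all genes rose and 25.2% fell (51.3% in all), and 12 rose and 4 fell in WT, where 30.9% rose and 29.3% fell (60.1% in all). In KO the genes that rose were 6 of 7 mevalonate genes, 6 of 11 from squalene to cholesterol, 3 of 3 in fatty acid synthesis, and Scd2 and Elovl5, and in WT 5, 3 and 2 of those roles with Scd2 and Elovl5. Mvd read 77.8, 86.5, 60.4 and 71.3 CPM in KO IL-4 cells, against 46.3, 45.4, 37.6 and 41.9 CPM in KO M0 (log2 fold change 0.79 ± 0.10, adjusted p = 4.41e-07). In WT it read 67.5, 76.9, 66.7 and 69.9 CPM in IL-4, against 38.8, 42.8, 49.8 and 36.04 CPM in M0 (log2 fold change 0.75 ± 0.10, adjusted p = 6.48e-07). IL-4 and M0 values did not overlap in either genotype. Fasn rose in KO (log2 fold change 0.62 ± 0.081, adjusted p = 5.02e-07) and in WT (log2 fold change 0.76 ± 0.081, adjusted p = 1.1e-08). Acaca, at 47.7, 49.7, 44.6 and 41.99 CPM in KO IL-4 and 43.5, 42.6, 48.8 and 46.8 CPM in WT IL-4, rose by 0.54 ± 0.081 in KO (4.03e-06) and by 0.72 ± 0.082 in WT (3.38e-08). Dhcr7 rose by 0.46 ± 0.089 in KO (0.000116) and by 0.64 ± 0.09 in WT (1.02e-06).

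The genes that fell with IL-4 were fatty acid genes. Fads1 fell in KO (log2 fold change -0.19 ± 0.055, adjusted p = 0.00474) and WT (log2 fold change -0.37 ± 0.055, adjusted p = 2.69e-06). Fads2 read 23.5, 26.3, 20.02 and 19.8 CPM in KO IL-4 cells, against 27.7, 27.8, 23.8 and 24.6 CPM in KO M0 (log2 fold change -0.22 ± 0.096, adjusted p = 0.0639), with overlap. In WT, Fads2 read 15.6, 13.9, 12.6 and 13.2 CPM in IL-4, against 25.3, 23.5, 21.5 and 23.6 CPM in M0, without overlap (log2 fold change -0.76 ± 0.098, adjusted p = 2.65e-07). Scd1 had -0.0095 ± 0.079 in KO (adjusted p 0.934) and fell in WT (log2 fold change -0.37 ± 0.08, adjusted p = 0.000293). Acsl3, which activates fatty acids to acyl-CoA, fell in WT (log2 fold change -0.23 ± 0.087, adjusted p = 0.0252), a call that DESeq2 did not make (0.0934). Hmgcs1 and Sqle rose in KO (0.19 ± 0.074 and 0.31 ± 0.13) and were not called in WT (0.097 ± 0.074 and 0.29 ± 0.13). Insig1 and Srebf2 were called in neither, with 0.14 ± 0.11 and 0.14 ± 0.12 in KO and -0.033 ± 0.11 and 0.094 ± 0.12 in WT, and Scd2 rose in both (0.28 ± 0.089 in KO and 0.28 ± 0.089 in WT). Marker sums moved with IL-4 as well. Proliferation markers, all 6 called higher in each genotype, summed to 813 to 1001 CPM in KO IL-4 compared with 531 to 608 CPM in KO M0, and to 1038 to 1082 CPM in WT IL-4 against 592 to 622 CPM in WT M0. Stromal markers (7 of 8 lower, 1 higher in each genotype) summed to 10797 to 14098 CPM in KO IL-4 compared with 14752 to 19244 CPM in KO M0, and to 7339.6 to 7894 CPM in WT IL-4 against 10318 to 12016 CPM in WT M0. Macrophage markers (5 of 8 lower in KO, 6 lower and 1 higher in WT) summed to 4947 to 5209.9 CPM in KO IL-4 compared with 7300.4 to 9034 CPM in KO M0, and to 5547 to 6175 CPM in WT IL-4 against 11760.5 to 13368 CPM in WT M0. Their part in the result was not tested.

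Because same-numbered KO libraries of M0 and IL-4 deviated together (as did 5 with 6 and 7 with 8), the KO response to IL-4 was also fitted with the label number as a replicate block. That fit called 22 genes, 20 higher and 2 lower, adding Mvk (0.20, adjusted p 0.00395), Insig1 (0.14, 0.0125), Stard4 (0.22, 0.00437) and Fads2 (-0.22, 0.00135). With DESeq2's size factors in edgeR the KO counts were 12 higher and 3 lower, and DESeq2 itself called 9 higher and 1 lower (25.3% of all genes in its fit were called). No share of all genes is given for the block or size-factor fit of this response. For the IL-4 interaction, the share of all genes called was 7.62% with the block and 1.14% without it. The calls added by the block are therefore not a result about these genes.

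The difference between the genotypes in their response, KO minus WT, was tested as an interaction. For LPS, 2 of the 31 genes were called, both lower, compared with 11.4% of all genes (6.62% higher and 4.79% lower): Fasn (-0.44 ± 0.13, adjusted p = 0.0272) and Acaca (-0.42 ± 0.13, adjusted p = 0.0389). Both calls ended with DESeq2 (0.0800 and 0.277) and without WT LPS number 3 (0.137 and 0.129), WT LPS number 4 (0.161 and 0.206) or KO LPS number 5 (0.0539 and 0.144). Without KO LPS number 8 that of Fasn ended (0.0887), and without WT LPS number 2 (0.0550) or KO LPS number 6 (0.0615) that of Acaca. The interactions of Hmgcs1 (0.29 ± 0.12), Insig1 (0.31 ± 0.18), Sqle (0.068 ± 0.21), Srebf2 (-0.032 ± 0.18), Scd1 (-0.18 ± 0.13) and Scd2 (-0.24 ± 0.14) were not called.

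For IL-4, 1 of the 31 genes had a called interaction, compared with 1.14% of all genes (0.47% higher and 0.667% lower): Fads2 (0.55 ± 0.14, adjusted p = 0.0485). That call was near the threshold. It ended when any of 10 of the 16 M0 and IL-4 libraries was left out, namely WT M0 numbers 1, 3 and 4, KO M0 numbers 7 and 8, WT IL-4 numbers 2, 3 and 4, and KO IL-4 numbers 5 and 6, with adjusted p between 0.0350 and 0.101 over the 16. It also ended with no filter (0.0531) and without the shallow LPS libraries (0.0537). With the replicate block both Fads2 (0.54, adjusted p 0.000186) and Scd1 (0.36, 0.00203) were called. Scd1, at 0.36 ± 0.11 (adjusted p 0.119) without it, was also called in the fit of the compared groups alone (0.04897), without KO numbers 5 and 6 (0.0294), without 7 and 8 (0.0281) and without KO IL-4 number 8 (0.0487), as was Fads2 in these fits. The interactions of Hmgcs1 (0.091 ± 0.10), Sqle (0.017 ± 0.18), Insig1 (0.17 ± 0.16), Srebf2 (0.041 ± 0.16), Fasn (-0.14 ± 0.11), Acaca (-0.18 ± 0.11) and Scd2 (0.0064 ± 0.13) were not called.

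A further list of 34 genes of lipid metabolism that are not among the 31 was counted beside them: regulators, other enzymes of both pathways, and genes of lipid uptake, storage and efflux. KO against WT, 6 rose and 5 fell in M0 (22.3% of all genes were called), 10 rose and 6 fell in LPS (30.9%), and 9 rose and 5 fell in IL-4 (36.1%). In M0, Abcg1, an exporter of cholesterol to lipoproteins, read 52.7, 59.1, 56.5 and 62.6 CPM in KO cells, against 30.5, 29.5, 32.2 and 31.3 CPM in WT (log2 fold change 0.90 ± 0.066, adjusted p = 5.26e-10). Its KO libraries were all above its WT libraries. Vldlr, a lipoprotein receptor, rose in M0 (0.62 ± 0.074), LPS (1.17 ± 0.097) and IL-4 (0.91 ± 0.076), and Dhdds, which makes dolichol from isoprenoids, fell in all 3 states (-0.44 ± 0.053, -0.51 ± 0.067 and -0.54 ± 0.053). Lipa, the lysosomal acid lipase gene, rose in LPS (0.87 ± 0.11), Ch25h, which makes 25-hydroxycholesterol, fell in IL-4 (-1.08 ± 0.12), Hacd2 rose in M0 (0.39 ± 0.067), and Fads3 rose in IL-4 (0.61 ± 0.08).

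Against M0, LPS raised 17 and lowered 9 of the 34 in KO, where 31.2% of all genes rose and 36% fell, and raised 14 and lowered 8 in WT, where 29.4% rose and 28.3% fell. Nr1h3, the LXR-alpha gene, rose by 3.94 ± 0.069 in KO and 3.74 ± 0.073 in WT, and Ch25h by 4.03 ± 0.14 in KO and 3.71 ± 0.15 in WT. IL-4 raised 15 and lowered 4 in KO, where 26% of all genes rose and 25.2% fell, and raised 16 and lowered 7 in WT, where 30.9% rose and 29.3% fell. Abcg1 rose with IL-4 by 1.68 ± 0.066 in KO and 2.42 ± 0.068 in WT, and Ch25h by 3.27 ± 0.14 in KO and 4.04 ± 0.14 in WT. Both IL-4 responses were smaller in KO by the interaction test (Abcg1 -0.74 ± 0.092, adjusted p = 8.79e-05; Ch25h -0.77 ± 0.18, adjusted p = 0.0408), and these were the 2 of 34 genes called, compared with 1.14% of all genes. For LPS the interaction was called in 6 of 34 genes, 4 higher and 2 lower, compared with 11.4% of all genes, among them Lipa (0.85 ± 0.15), Me1 (0.48 ± 0.091), Soat1 (0.50 ± 0.11) and Vldlr (0.55 ± 0.12). By label number within KO, 6 of the 33 genes tested were called, compared with 16% of all genes, among them Acss2, which makes acetyl-CoA from acetate (0.000264). Within WT, where 1.63% of all genes were called, 2 of 33 were, Ch25h (0.0297) and Abca1 (0.0449).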

How the data were processed

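RNA from the 24 libraries was aligned with TopHat2 2.1.0 to mm10 (GRCm38) and counted with HTSeq 0.9.1, per the submitters' processing notes. The deposited values are raw counts per gene symbol. Annotation, library kit and strand setting are not named in those notes, so reads from overlapping genes (9 of the 31 overlap another counted gene in RefSeq) may not be separable. The 5 summary lines of each library, equal to 8.76% to 9.98% of the gene counts and summary lines together, were left out. Of the symbols, 23204 matched RefSeq directly. No 2 libraries were identical.

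Differences were fitted with edgeR 4.0.16 under R 4.3.3 (TMM normalisation, filterByExpr by group, quasi-likelihood test): 14693 genes, a coefficient for each of the 6 groups and 18 residual degrees of freedom, with Benjamini-Hochberg adjustment over all genes of a contrast. Label number was tested by an F-test within each genotype. The procedure was tested on simulated data. Alternatives were DESeq2 1.42.0, its size factors in edgeR, no filter, smaller fits, a label-number block and libraries left out, and omitting the shallow libraries, a pair of KO numbers or (added after seeing the data) the LPS state. Ratios to WT used a pseudocount of 0.5 CPM. Tables and plots were made with Python 3.11.15, pandas 2.3.3 and matplotlib 3.10.9.

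Label numbers are shared across states. For KO M0 and IL-4, deviations from the group means correlated in all 4 same-number pairs (r 0.31 to 0.41, across genes), so these were taken as paired. Pairs of number 5 with 6 and of 7 with 8 correlated as highly (r 0.32 to 0.38), so the values separate 5 and 6 from 7 and 8 and not the single numbers. Other state pairs did not reach 0.1 throughout. KO and WT share no number, so their comparison could not be blocked.

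The members and lists were chosen with earlier results of these data known. Full statistics are given for called genes by smallest adjusted p (at most 8 for KO against WT, interactions and label number, 4 in each direction for each stimulation) and always for Hmgcs1, Sqle, Insig1, Srebf2, Fasn, Acaca, Scd1 and Scd2; at most 4 related genes are named for a comparison.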

Additional observations from a re-analysis of the deposited data

Results flagged for a closer look

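In 14 of 186 sets of 4 libraries (31 genes in 6 groups), the highest or lowest library stood apart from the other 3 by Dixon's test at the 95% level, which chance gives in about 1 in 20 sets. Of these, 9 were in shallow LPS libraries that rest on few counts. KO LPS number 7 was lowest for Acat2 (5.98 CPM from 1 count) and Fads1 (47.8 CPM) and highest for Hsd17b7 (35.9 CPM). WT LPS number 1 was highest for Pmvk (30.9 CPM), Ebp (51.6 CPM) and Elovl6 (25.8 CPM) and lowest for Acaca (5.16 CPM) and Fasn (30.9 CPM), and WT LPS number 2 was highest for Nsdhl (20.9 CPM).

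The other 5 were in deep WT libraries. Sqle was highest in WT LPS number 4 (54.9 CPM). Lss and Cyp51 were lowest in WT IL-4 number 1 (32.1 and 91.8 CPM). Dhcr7 was highest in WT M0 number 1 (43.2 CPM), and Insig1 in WT M0 number 4 (98.9 CPM), where the other 3 WT values were 96.1, 95.9 and 95.6 CPM. In KO groups no deep library stood apart for any of the 31 genes. The test looks for 1 library apart from the other 3, so it cannot flag a split into pairs. Insig1 in KO M0 numbers 5 to 8, at 83.9, 80.4, 61.2 and 62.7 CPM, has such a split. The absence of flags therefore does not show that the KO libraries were even.

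The response of KO minus that of WT passed the interaction test of edgeR for 3 genes, on the log2 scale: Acaca (-0.42) and Fasn (-0.44) for LPS, and Fads2 (0.55) for IL-4.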

How the results depend on the processing

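Of 8 LPS libraries, 3 hold under 1000000 gene counts. Percentages here are of all genes in each fit, and DESeq2 and the fit with no filter also hold low-count genes. A count or range with no percentage beside it cannot be set against all genes. Of the 31 genes, the number called for KO against WT in M0 was 4 in the reported analysis (22.3%). It was 2 with DESeq2 (7.51%), 11 with the compared groups alone (24.1%), 18 without KO numbers 5 and 6 (31.3%), and 4 to 8 over single libraries left out. The LPS count was 5 (30.9%), and 3 with DESeq2's size factors (31.2%), 2 with DESeq2 (13.9%) and 3 without the shallow libraries (31.4%). It was 17 without KO numbers 5 and 6 (29.2%), 10 without KO numbers 7 and 8 (37.7%), and 2 (without WT LPS number 4, 20.2%) to 5 over single libraries. The IL-4 count was 5 (36.1%), and 3 with DESeq2's size factors (36.4%), with no filter (26.4%) or with DESeq2 (14.6%). It was 20 without KO numbers 5 and 6 (41.3%), and 3 to 11 over single libraries. The pairs of KO numbers left out were chosen with the order of the libraries known. Why these counts differ was not tested.

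For the stimulations, leaving out single libraries gave 19 to 30 (LPS in KO), 18 to 24 (LPS in WT), 13 to 17 (IL-4 in KO) and 12 to 14 (IL-4 in WT) called genes. Shares of all genes are not given for those fits. In the reported analysis they were 67.3%, 57.7%, 51.3% and 60.1%, in that order. For IL-4 in KO, DESeq2 called 10 (25.3% of all genes in its fit). The LPS interaction count was 2 (11.4%), and 0 with DESeq2 (4.48%) and 1 with the compared groups alone (9.97%). It was 6 with the replicate block (20.4%), 6 without KO numbers 7 and 8 (15.7%), and 0 to 3 over single libraries. The IL-4 interaction count was 1 (1.14%), and 0 with no filter (0.611%), without the shallow libraries (1.72%) or with DESeq2 (0.428%), which gave Fads2 no adjusted p for it. It was 2 with the compared groups alone (2.07%), with the replicate block (7.62%), without KO numbers 5 and 6 (4.55%) or without 7 and 8 (0.704%), and 0 to 2 over single libraries. For label number within KO, 17 to 26 of 31 were called over single libraries and 22 to 26 over the other alternatives. Within WT the count was 1 with DESeq2 (0.874%) and 0 to 5 over single libraries (5 without WT M0 number 3, 12.8%). Without the LPS state, an alternative chosen after seeing the data, label number was called for 22 genes in KO and 0 in WT. No share of all genes is given for the KO label-number alternatives. In the reported analysis that share was 16%.

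With the replicate block, 28 genes were called for LPS in KO, 25 for LPS in WT, 22 for IL-4 in KO and 21 for IL-4 in WT. The shares of all genes called in these 4 comparisons with the block are not given. For the interactions the block raised that share, from 11.4% to 20.4% for LPS and from 1.14% to 7.62% for IL-4. The block counts therefore cannot be set against all genes. Outside KO M0 and IL-4 the numbers are not known to pair libraries. Over all pairs of states, KO M0 with IL-4 included, the closest library bore the same number in 7 of 12 cases in KO. In WT it did so in 4 of 12. KO against WT could not be blocked because the genotypes share no label number.

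The following log2 values include a change of sign, each for a gene not called in the reported analysis, and the cause was not tested. For KO against WT in M0, Sqle was 0.14 without KO numbers 7 and 8 and -0.13 to 0.017 over single libraries left out, and Scd1 -0.086 without 5 and 6 and -0.021 to 0.056. In LPS, Sqle was -0.0020 with the compared groups alone, -0.38 without 5 and 6 and -0.067 to 0.20, and Insig1 0.019 without 7 and 8 and -0.19 to 0.018. In IL-4, Hmgcs1 was 0.043 without 7 and 8, Sqle 0.21 without 7 and 8 and -0.12 to 0.070, and Acaca -0.075 without 5 and 6 and -0.029 to 0.051. For LPS in WT, Acaca was -0.064 with DESeq2's size factors, -0.083 with DESeq2 and -0.13 to 0.059, and Scd2 -0.070, -0.074 and -0.15 to 0.037. For IL-4, Scd1 in KO was 0.012 without 7 and 8 and -0.11 to 0.0062, Srebf2 -0.0050 to 0.16 in KO and -0.014 to 0.078 in WT, and Hmgcs1 in WT -0.0013 to 0.074. For the LPS interaction, Sqle was -0.084 without 5 and 6 and -0.045 to 0.26, and Srebf2 0.012 without the shallow libraries, 0.025 without 7 and 8 and -0.12 to 0.13. For the IL-4 interaction, Sqle was -0.0022 without 5 and 6 and -0.067 to 0.13, Srebf2 -0.039 to 0.13, and Scd2 -0.072 without 5 and 6 and -0.044 to 0.085. Over the results checked for values in the text, 67 changed sign, 129 lost their call, 35 gained one and 1769 were counted as unchanged. A change of sign was counted as such even with a gained call, as for Sqle in IL-4 without 7 and 8. The unchanged results include label-number tests, which have no direction. They also include values under other pseudocounts or another WT mean, which have no call.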
